A study of Mus musculus with 12 samples.

Results

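The protein 4.1 family is described here in the cochlear epithelium of mouse embryos with and without Esrp1. Its members were taken as all rows of the deposited table with the gene symbols Epb4.1, Epb4.1l1, Epb4.1l2, Epb4.1l3, Epb4.1l4a, Epb4.1l4b and Epb4.1l5. These are 7 of 22869 gene symbols and 13 of 28644 rows, where a row is 1 RefSeq transcript. Of the members, 4 genes had several rows and 3 had a single row. The family was selected on the reads of the Epb4.1l5 rows, which were already known to differ between the groups, so the Epb4.1l5 values are a description and no p-value is given for them.

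RNA-seq was performed at embryonic day 16.5 on 3 knockout embryos (Esrp1-/-) and 3 control embryos (wild-type, Esrp1+/+), all C57BL/6. The epithelium was dissected by hand and cleared of mesenchyme with collagenase, and both cochleae of an embryo were pooled, so each embryo is 1 biological replicate. Each embryo gave 2 polyA libraries, 12 in all, which stand together in 1 column of reads. The labels describe neither the deleted part of Esrp1 nor any cell-type-restricted Cre, and the knockout is read here as the genotype the labels give.

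Protein 4.1 family members share a FERM domain, a clover-shaped module that binds the cytoplasmic tails of membrane proteins. The founding member, protein 4.1R, ties the spectrin-actin skeleton to the red cell membrane, and its relatives organise membrane and junction proteins in other tissues. Epb4.1l5 binds the apical polarity protein Crumbs in epithelia and is needed for cell movement at mouse gastrulation. ESRP1 binds RNA and directs alternative splicing in epithelia, and members of this family are known to be made in several spliced forms.

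The depth was 12547301 to 18473139 reads over genes in knockout embryos and 16411205 to 21568516 in control embryos. Esrp1 had 27.2, 34.3 and 39.1 CPM (reads scaled to the TMM-adjusted depth) in knockout embryos 1, 2 and 3, against 197, 102 and 118 CPM in control embryos 1, 2 and 3. Its log2 fold change, knockout over control, was -2.05 ± 0.26 (SE), and it passed the test (edgeR, adjusted p = 0.0354). All knockouts were below all controls, but the adjusted p was 0.122 to 0.158 without control 3 or without knockout 1, 2 or 3, 0.134 with the replicate block and 0.0798 with Xist as a covariate (edgeR). It was 0.00967 without control 1, 0.0225 without control 2, 0.00105 without both embryos numbered 1 (edgeR) and 3.0e-12 with DESeq2. With RLE size factors, no filter on low counts or the mean of a gene's rows it was 0.00831 to 0.0364 (edgeR). The log2 fold change ran from -2.36 to -1.59 over these settings. Every list of cell type markers was detected with no marker at 0. Summed CPM of 9 epithelial markers was 1390 to 1777 in knockout and 1055 to 2058 in control embryos, and that of 10 periotic mesenchyme markers was 3449 to 3519 in knockout and 2687 to 3869 in control embryos. The tissue thus also held mesenchymal RNA, and in such bulk samples fewer cells of a type cannot be told apart from less RNA per cell. The embryos also differed in sex-linked RNA. Xist had 1098, 0.268 and 0.200 CPM in knockout embryos 1, 2 and 3, against 1688, 1313 and 1808 CPM in the controls. Ddx3y had 0.839, 95.0 and 81.9 CPM in the knockouts, against 0.815, 0.907 and 0.647 CPM in the controls, so knockout 1 resembled the controls in both genes. Of 14717 genes tested, 22 passed an adjusted p of 0.05 (0.149%), 12 higher and 10 lower in the knockout. With the embryo number as a replicate block, 6 genes passed. Without knockout 2, 0 genes passed (680 at an unadjusted p under 0.05, edgeR), and without control 3 again 0 (540 genes, edgeR).

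Epb4.1l5 (chromosome 1, 119545032 to 119649096, minus strand, GRCm38, which is mm10) has 2 rows that end differently. In the GENCODE M21 annotation they share 16 exons with 1334 coding bases, which encode the FERM domain end of the protein. The short row (NM_001113416) then ends in an exon of its own, with 178 more coding bases and a stop codon, and encodes 504 residues. The long row (NM_145506) skips that exon and continues through 9 further exons with 859 coding bases, and encodes 731 residues. The rows therefore differ in the tail of the protein and share its first 444 complete residues.

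**Figure D1:**
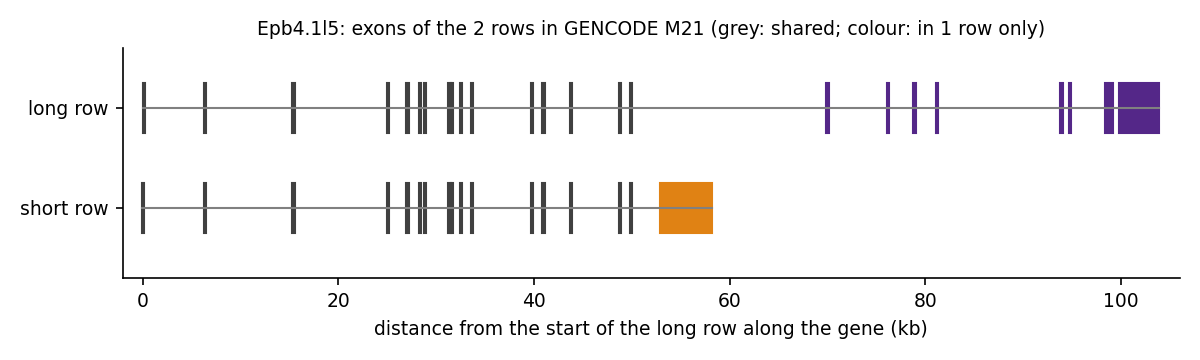
Exons of the 2 Epb4.1l5 rows in GENCODE M21, drawn along the gene in the direction of transcription (x axis, kb from the start of the long row; narrow exons are widened to stay visible). The 16 shared exons are grey, the single last exon of the short row is orange and the 9 exons of the long tail are purple.

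The sequences at the branch point are shown because the 2 rows part after the first of them. All are on the minus strand of GRCm38, written 5′ to 3′ in transcript sense. The last shared exon, exon 16, lies at chr1:119599005-119599120. The coding part of the last exon of the short row lies at chr1:119595879-119596059, and capitals in it mark a TGGTGG match and the stop codon. The first exon of the long tail lies at chr1:119578914-119579077.
last shared exon: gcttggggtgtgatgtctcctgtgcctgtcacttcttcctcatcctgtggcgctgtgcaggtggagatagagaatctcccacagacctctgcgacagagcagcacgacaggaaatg
short-row end: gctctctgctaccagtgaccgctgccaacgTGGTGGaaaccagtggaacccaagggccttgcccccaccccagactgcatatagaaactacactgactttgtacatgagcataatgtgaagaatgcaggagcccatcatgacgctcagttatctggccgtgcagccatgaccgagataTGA
long-tail first exon: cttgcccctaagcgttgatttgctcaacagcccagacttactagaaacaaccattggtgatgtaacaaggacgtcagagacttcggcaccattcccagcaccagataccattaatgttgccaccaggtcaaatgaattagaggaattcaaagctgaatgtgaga

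ESRP proteins are known to bind UGG-rich RNA, and TGGTGG was searched on both strands of these 3 exon sequences. The short-row end held 1 match in transcript sense, at base 31 counted from its 5′ end. The last shared exon held 0 on either strand, and the first long-tail exon held 0 in transcript sense and 1 on the other strand. Of 21624 genes, 2244 (10.4%) held TGGTGG in the last 181 coding bases, so a match is common and says nothing about binding. Intron sequence was not analysed here.

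The short row of Epb4.1l5 took a smaller share of reads in the knockout. The long row had 1318, 2131 and 2088 reads in knockout embryos 1, 2 and 3, against 1771, 1661 and 1416 reads in control embryos 1, 2 and 3. The short row had 385, 646 and 672 reads in the knockouts, against 913, 759 and 691 reads in the controls. Reads of the short row were 29.2%, 30.3% and 32.2% of those of the long row in the knockouts, against 51.6%, 45.7% and 48.8% in the controls. The groups were separated by a wide gap, with all 3 knockouts below all 3 controls. The mean share was 30.6% ± 1.5 in knockout and 48.7% ± 2.9 in control embryos (SD, n = 3 each), a difference of -18.1 percentage points. Knockout 1 had the lowest share of all. Its Xist level was nearer to the controls than to the other knockouts, and the part of sex-linked RNA in the share was not tested.

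Both rows count the reads of the 16 shared exons, so the share of reads is not the share of transcripts. The long row is 6442 bases long in GENCODE, of which 1488 are shared. The short row is 2753 bases long as implied by the ratio of its deposited reads and FPKM to those of the long row, so its own tail is 1265 bases. The GENCODE transcript that matches its coding exons is longer, at 6870 bases. With these implied lengths, and assuming that reads fall evenly along each form, the reads of the 2 rows were solved for the 2 forms. This calculation was chosen after the reads were seen.

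The short form was then 14.5%, 16.8% and 20.5% of both forms in knockout embryos 1, 2 and 3, against 48.0%, 41.2% and 45.0% in control embryos 1, 2 and 3. The knockouts again lay below every control, at 17.3% ± 3.00 in knockout and 44.7% ± 3.38 in control embryos (SD, n = 3 each). With a GENCODE short form that has a tail of 1035 bases, the means were 18.8% in knockout and 47.7% in control embryos.

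**Figure D2:**
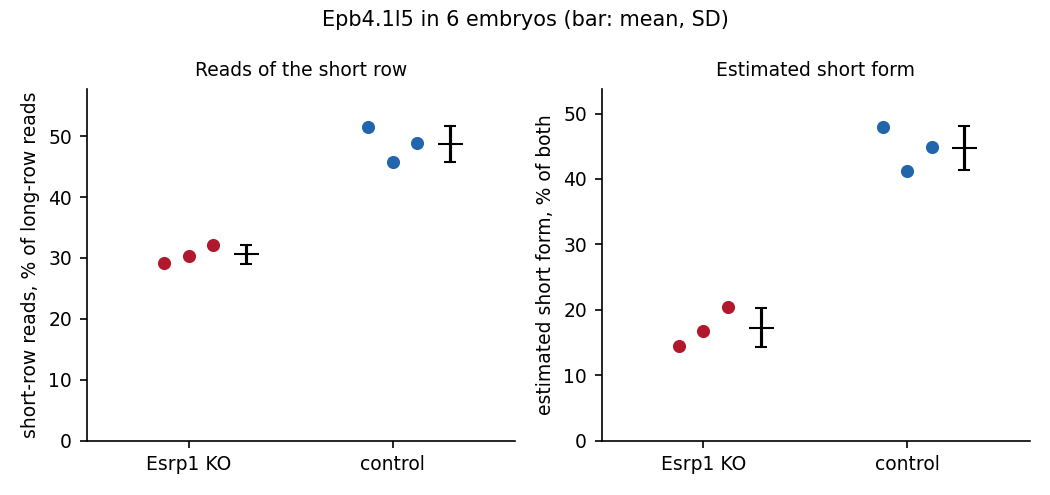
Left, reads of the short Epb4.1l5 row as a percentage of those of the long row. Right, estimated percentage of the short form among both forms. Points are embryos 1, 2 and 3 of each group and bars are the mean with SD; the knockouts lie at 29.2 to 32.2% on the left and 14.5 to 20.5% on the right, below every control.

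Per length and depth, the short form was lower and the long form higher in the knockout, while the group means of their sum were close. The short form had 2.55, 3.43 and 5.25 CPM per kb in the knockouts, against 13.1, 7.07 and 8.14 in the controls. The long form had 15.0, 17.0 and 20.4 CPM per kb in the knockouts, against 14.2, 10.1 and 9.97 in the controls. All 3 knockouts were below all 3 controls in the short form and above them in the long form, although knockout 1 and control 1 were close in the long form. Both forms together had 17.6, 20.4 and 25.7 CPM per kb in the knockouts, against 27.3, 17.1 and 18.1 in the controls, and these overlapped. The ratio of the group means of the sum was 1.02, knockout over control.

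**Figure D3:**
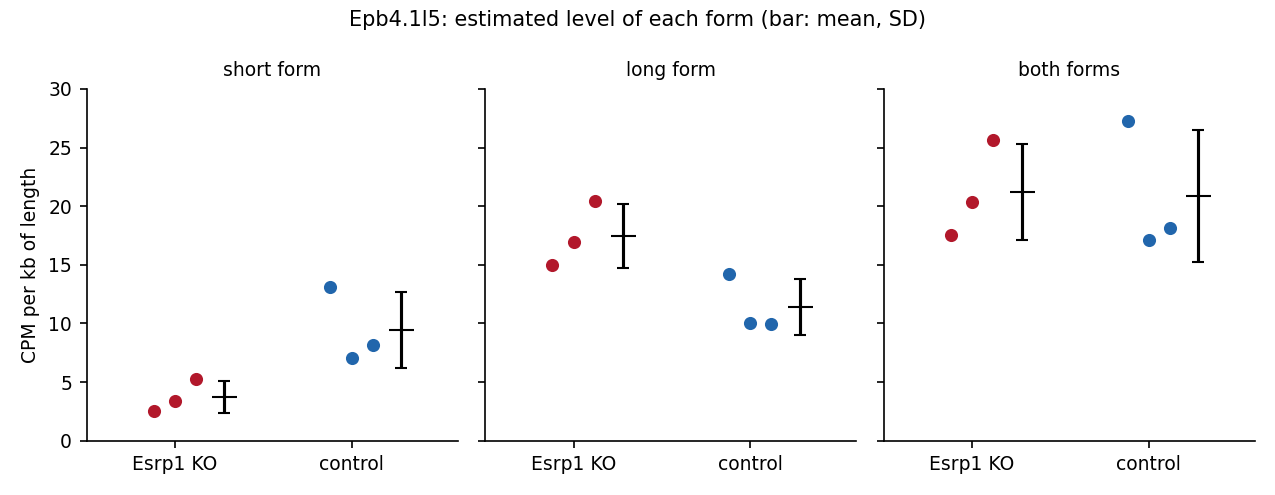
Estimated levels of the short form, the long form and both forms of Epb4.1l5, in CPM per kb of length on the y axis, for the 3 knockout and 3 control embryos (points; bars are the mean with SD). The short form is lower and the long form higher in the knockouts, and the sum overlaps between the groups.

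The long row, which stands for Epb4.1l5 in the comparison of genes because it has the most reads, had 100, 114 and 139 CPM in the knockouts, against 111, 75.3 and 76.3 CPM in the controls. Control 1 lay among the knockouts. The log2 fold change of this row was 0.43 ± 0.19 (SE). It was 0.73 without both embryos numbered 1, 0.24 with the mean of the gene's rows and 0.19 with Xist as a covariate. In the authors' deposited table the log2 fold change was 0.39 for the long row and -0.27 for the short row, with an FDR of 1 for each. A comparison of whole rows thus gave 2 small changes of opposite sign for the rows whose proportion differed. Summed CPM of 6 hair cell markers was 225 to 279 in knockout and 280 to 310 in control embryos. These ranges did not overlap but nearly met, at 279.1 in knockout and 279.6 in control embryos. Of all genes tested, 9.84% had groups that did not overlap. The part of the hair cell markers, or of the sex-linked genes, in the Epb4.1l5 share was not tested.

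Among 4449 pairs of a main and a further row with at least 500 main-row reads over the 6 embryos, the Epb4.1l5 pair had the 5th lowest difference, knockout minus control. The family was selected on this pair, so its place in the order is a description and nothing is read from it. The median absolute difference over these pairs was 0.205 percentage points, and 329 of them had groups that did not overlap. The 3 lowest differences were all of C1qtnf5, whose rows had shares of 32.7 to 39.9% in the knockouts and 41.7 to 84.0% in the controls.

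Epb4.1, which encodes protein 4.1R (chromosome 4, 131923413 to 132075346, minus strand), was the highest member per length, and its rows did not separate in this way. The main row (NM_183428) includes 3 coding exons of 57, 42 and 63 bases that the other 2 rows lack, and a 5′ exon of 1470 bases outside the coding sequence. Together these make up 24.9% of the row. The 63-base exon is known as part of the region that binds spectrin and actin, and its use changes as red cells mature. The 3 exons are shown because they are the only coding difference between the rows. They lie on the minus strand of GRCm38 at chr4:131964131-131964187, chr4:131963929-131963970 and chr4:131962924-131962986, and no base is in capitals since no position in them is singled out.
Epb4.1 exon of 57 bases: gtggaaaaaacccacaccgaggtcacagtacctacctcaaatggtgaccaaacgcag
Epb4.1 exon of 42 bases: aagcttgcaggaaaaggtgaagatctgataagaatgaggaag
Epb4.1 exon of 63 bases: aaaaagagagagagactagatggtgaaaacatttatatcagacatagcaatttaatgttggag

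The main row of Epb4.1 had 36246 reads over the 6 embryos, only 136 more than the row NM_001128607 (0.375% of its reads). That excess was 9, 37 and 12 reads in knockout embryos 1, 2 and 3, against 25, 21 and 32 reads in control embryos 1, 2 and 3, and the groups overlapped. The proportion of this pair did not pass the test of log2 odds (adjusted p = 0.938, limma). Over 1754 pairs in 1174 genes, 1 pair passed (0.0570%). It was the Epb4.1l5 pair that the family was selected on, and nothing is read from it. Without knockout 2, 0 pairs passed (84 at an unadjusted p under 0.05, limma), and without control 3 there were 2. The row NM_001128606, which has a 5′ exon of 208 bases of its own, had 30 reads fewer than the main row (0.0828%). Its reads were 99.7% to 100.1% of those of the main row in the 6 embryos. The difference for NM_001128606 is net, because reads in its own 5′ exon cancel against those in exons that only the main row has. NM_001128607 has no exon of its own in GENCODE M21.

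Epb4.1 had 290, 326 and 385 CPM in knockout embryos 1, 2 and 3, against 448, 342 and 319 CPM in control embryos 1, 2 and 3. The groups overlapped, and the gene did not pass the test (log2 fold change -0.15 ± 0.18 SE, adjusted p = 0.994, edgeR). Its exons overlap those of 2 genes on the opposite strand, Gm10300 and Gm13063. The kit was directional, but whether the counting used strand is not given in the sources used here.

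Epb4.1l2, which encodes the broadly expressed 4.1G (chromosome 10, 25359782 to 25523519, plus strand), was the only one of the 7 members whose groups did not overlap in CPM of the main row. It had 180, 189 and 202 CPM in knockout embryos 1, 2 and 3, against 149, 158 and 160 CPM in control embryos 1, 2 and 3. All 3 knockouts were above all 3 controls. The log2 fold change was 0.29 ± 0.12 (SE), which did not pass the test across genes (unadjusted p = 0.0357, adjusted p = 0.937, edgeR). Groups that do not overlap were found in 1448 of the 14717 genes tested (9.84%), so 1 such gene among the 6 members other than Epb4.1l5 is near that background. Its 2 rows encode the same 988 residues, differ only in a 5′ exon outside the coding sequence, and had nearly equal reads, with a net difference of 6 over the 6 embryos.

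Epb4.1l1 encodes 4.1N, a form best known from neurons (chromosome 2, 156417595 to 156543214, plus strand). It had 110, 128 and 144 CPM in knockout embryos 1, 2 and 3, against 154, 124 and 126 CPM in control embryos 1, 2 and 3. The values overlapped (log2 fold change -0.08 ± 0.15 SE, adjusted p = 0.994, edgeR). The further rows NM_013510 and NM_001006664 of Epb4.1l1 differ from each other only in a 5′ exon outside the coding sequence. Their reads were at least 98.9% of those of the main row in the 6 embryos, and the pair that could be tested had an adjusted p of 0.936 (limma). Summed CPM of 10 spiral ganglion neuron markers was 719 to 893 in knockout and 284 to 1124 in control embryos, which overlapped.

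Epb4.1l3 encodes 4.1B, a membrane scaffold known from neurons, glia and epithelia (chromosome 17, 69075647 to 69289991, plus strand). It had 126, 160 and 172 CPM in knockout embryos 1, 2 and 3, against 146, 161 and 167 CPM in control embryos 1, 2 and 3. Knockout 1 was the lowest of the 6 and the groups overlapped (log2 fold change -0.05 ± 0.15 SE, adjusted p = 0.994, edgeR).

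Epb4.1l4a and Epb4.1l4b encode more distant members with a FERM domain, and both had low levels. Epb4.1l4a (chromosome 18, 33796327 to 34007484, minus strand) had 55.2, 50.9 and 54.8 CPM in knockout embryos 1, 2 and 3, against 60.04, 45.4 and 47.5 CPM in control embryos 1, 2 and 3. Epb4.1l4b (chromosome 4, 56991972 to 57143168, minus strand) had 27.5, 21.6 and 25.2 CPM in the knockouts, against 42.1, 21.2 and 27.3 CPM in the controls. Control 1 was the highest of the 6 embryos in both genes, and the groups overlapped. The log2 fold changes were 0.07 ± 0.14 for Epb4.1l4a and -0.28 ± 0.24 for Epb4.1l4b (SE), each with an adjusted p of 0.994 (edgeR).

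Of the 6 members other than Epb4.1l5, 0 passed the test across genes (0.149% over all genes), and their adjusted p ran from 0.937 to 0.994 (edgeR). Only Epb4.1l2 had an unadjusted p under 0.05, against 702 of all 14717 genes. The median log2 fold change of the 6 was -0.06, beside 0.00 over all genes tested. In the authors' deposited table all 11 rows of these 6 genes had an FDR of 1.

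**Figure D4:**
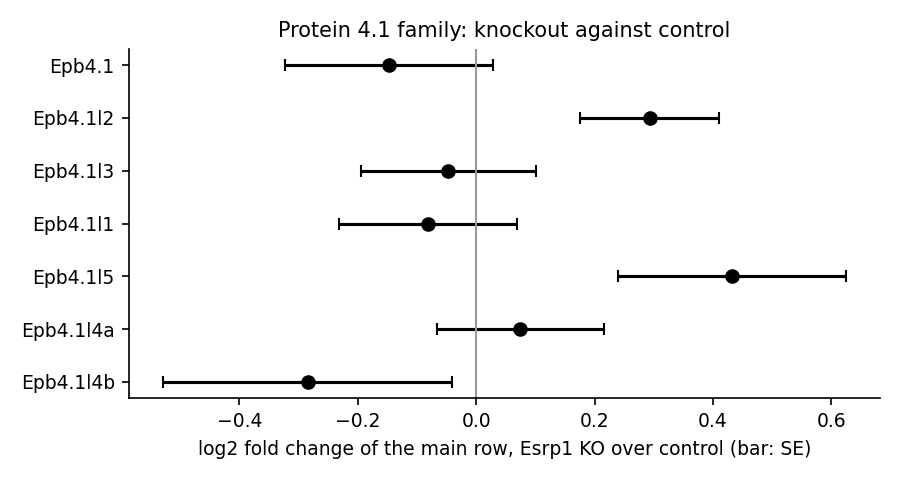
Log2 fold change, knockout over control, of the main row of each member (x axis; bars are SE from edgeR's fit, n = 3 embryos a group; members run down in order of FPKM). Epb4.1l5 and Epb4.1l2 lie highest at 0.43 and 0.29, and the other members lie between -0.28 and 0.07.

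Levels were compared between members in FPKM, which is per length, over all 6 embryos. Epb4.1 averaged 21.9 FPKM, Epb4.1l2 18.3, Epb4.1l3 17.4, Epb4.1l1 9.33, Epb4.1l5 6.48, Epb4.1l4a 5.59 and Epb4.1l4b 3.80 FPKM. For the main rows, the ranges of the first 3 overlapped in that order, as did those of the last 3. The overlap of Epb4.1 with Epb4.1l2 depended on the row chosen. The Epb4.1 rows NM_001128607 and NM_001128606 had nearly the same reads as its main row but higher FPKM. Over the 6 embryos NM_001128607 ranged from 25.4 to 33.2 FPKM and NM_001128606 from 24.996 to 32.7 FPKM. All these values lay above the highest value of Epb4.1l2, 20.5 FPKM. Epb4.1l3 lay above Epb4.1l1 in every embryo, with a lowest value of 14.8 FPKM against a highest of 9.96 FPKM. Epb4.1l1 lay just above Epb4.1l5, with 8.47 FPKM as its lowest value against 8.28 FPKM as the highest of Epb4.1l5. By group, the Epb4.1l5 long row had 6.86, 7.37 and 8.28 FPKM in the knockouts and 6.44, 4.95 and 4.96 FPKM in the controls. These FPKM values did not overlap between the groups, whereas in CPM of this row control 1 lay among the knockouts. The short row had 4.70, 5.25 and 6.23 FPKM in the knockouts and 7.77, 5.29 and 5.63 FPKM in the controls. Epb4.1l2 had 20.5, 20.1 and 20.2 FPKM in the knockouts, against 14.2, 17.4 and 17.1 FPKM in the controls.

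**Figure D5:**
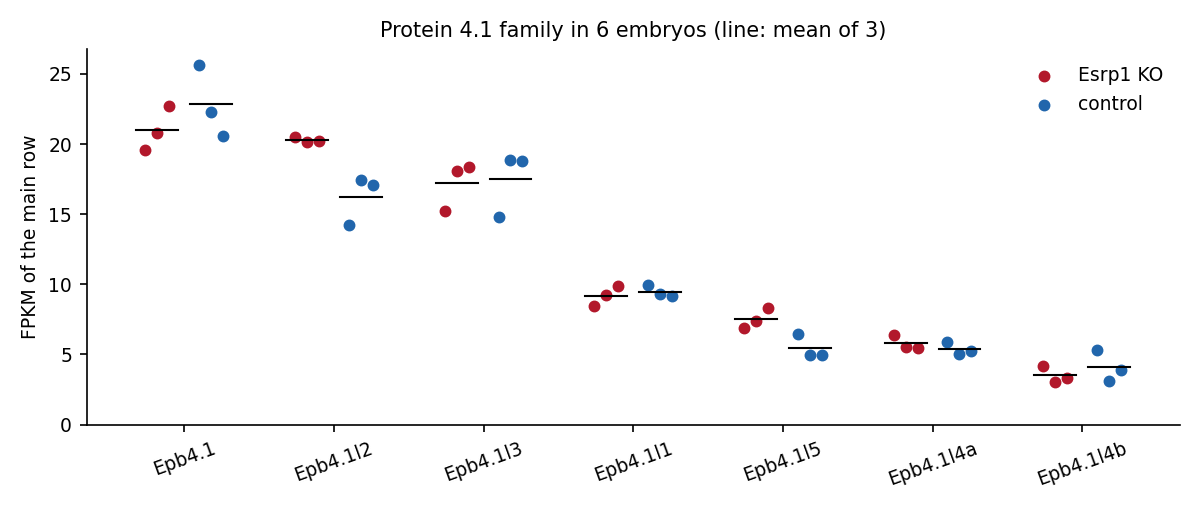
FPKM of the main row of each member in each embryo (y axis; points are embryos, lines the mean of 3), with knockouts left of controls. Epb4.1, Epb4.1l2 and Epb4.1l3 form the upper range at 14.2 to 25.6 FPKM and the other 4 members are at most 9.96 FPKM.

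Genes that work with 4.1 proteins did not pass the test either, as was so for nearly all genes tested. Of 17 genes of the spectrin-actin membrane skeleton, 0 were called in either direction, 3 had a positive log2 fold change and 3 had groups that did not overlap, with a median of -0.14. Over all 14717 genes tested, 0.149% were called, 50.3% had a positive log2 fold change and 9.84% had groups that did not overlap. Spna1, the erythroid alpha-spectrin, had the lowest adjusted p of that list, at a log2 fold change of -2.06 ± 0.70 (SE, adjusted p = 0.712, edgeR), with 0.0316, 0.0479 and 0.0873 FPKM in the knockouts, against 0.111, 0.490 and 0.0939 FPKM in the controls. Summed CPM of 10 erythroid markers, Spna1 among them, was 816 to 2271 in knockout and 1255 to 2716 in control embryos, and its part in the Spna1 value was not tested. Spnb2, the main nonerythroid beta-spectrin, had 41.3 ± 2.19 FPKM in knockout and 42.7 ± 5.54 FPKM in control embryos (SD, n = 3 each).

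Of 23 other genes with a FERM domain, 0 were called (0.149% over all genes) and 6 were positive (50.3% over all genes). The groups of 1 gene were separated (9.84% over all genes), and the median log2 fold change was -0.10. The separated gene was Ptpn3, a FERM-domain tyrosine phosphatase, at 0.26 ± 0.14 (log2, SE, adjusted p = 0.994, edgeR). Ezr, which encodes the apical linker ezrin, had 31.8 ± 2.90 FPKM in knockout and 28.9 ± 6.13 FPKM in control embryos (SD, n = 3 each).

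Of 18 genes of the Crumbs, Par and Scribble polarity modules, among them partners of Epb4.1l5, 17 were tested and 0 were called (0.149% over all genes). Of these, 4 had a positive log2 fold change (50.3% over all genes) and 0 were separated (9.84% over all genes), with a median of -0.06. Lin7a, a PDZ scaffold of the Crumbs complex, had the lowest adjusted p, at a log2 fold change of -1.15 ± 0.44 (SE, adjusted p = 0.901, edgeR). Its level was low, with 0.313, 0.596 and 0.324 FPKM in the knockouts, against 0.365, 1.41 and 1.01 FPKM in the controls. Control 1 lay among the knockouts. Llgl1, a Scribble-module protein, had 16.4 ± 0.345 FPKM in knockout and 15.4 ± 0.519 FPKM in control embryos (SD, n = 3 each).

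Of 15 membrane and adhesion partners of 4.1 proteins, 0 were called (0.149% over all genes) and 5 were positive (50.3% over all genes). The groups of 2 genes were separated (9.84% over all genes), and the median log2 fold change was -0.08. Cd44, a hyaluronan receptor that binds 4.1 proteins, was lower in all 3 knockouts than in all 3 controls, with 1.38, 1.48 and 1.24 FPKM in the knockouts, against 2.01, 1.68 and 2.09 FPKM in the controls. It did not pass the test (log2 fold change -0.53 ± 0.16 SE, adjusted p = 0.570, edgeR). Itgb1, the beta1 integrin, had 57.1 ± 6.41 FPKM in knockout and 63.0 ± 8.70 FPKM in control embryos (SD, n = 3 each).

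The genes whose log2 CPM over the 6 embryos was most like that of the Epb4.1l5 long row were Pcdhga7, Pcdhga2 and Ltbp1, of 10772 genes with a mean of at least 10 CPM. Their Pearson correlations were 0.985, 0.985 and 0.984, and 137 genes had one above 0.9, so many genes follow this order of embryos. Pcdhga7 and Pcdhga2 share their last exons within the gamma-protocadherin cluster, and their reads are not independent. Ltbp1, a secreted TGF-beta binding protein, had 160, 174 and 232 CPM in the knockouts, against 188, 114 and 126 CPM in the controls. In these data control 1 stood near the knockouts in Ltbp1 as it did in the Epb4.1l5 long row. Both embryos numbered 1 were high in Fos. It had 64.6, 4.29 and 1.00 CPM in knockout embryos 1, 2 and 3, against 152.7, 6.90 and 7.27 CPM in control embryos 1, 2 and 3. The part of this difference between embryos in the values above was not tested.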

How the data were processed

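Per the labels, 3 knockout and 3 control embryos were sequenced. The authors deposited read counts in a column for each embryo, as reads per RefSeq transcript with no normalisation per the file headers. FPKM values per embryo were also deposited by the authors, scaled by transcript length and depth per the file headers, as were the authors' log2 fold changes and p-values with FDR. The submitters' processing notes name edgeR and mm10; which aligner and counter were used is not given in the sources used here. The table's other 15 columns of values were left aside.

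The row with most reads over the 6 embryos stood for its gene. Genes were filtered with filterByExpr (minimum count 10), scaled by TMM and tested with edgeR 4.0.16's quasi-likelihood test under R 4.3.3, with Benjamini-Hochberg adjustment at 0.05 over all genes. SE was obtained by dividing the size of the log2 fold change by the root of the F statistic. Row pairs with at least 60 net reads and 60 reads in the further row were tested with limma 3.58.1 on log2 odds with a pseudocount of 0.5. Pairs whose further row had more reads than the main row in any embryo were left out, so the test does not cover them. DESeq2 1.42.0 was an alternative. Both tests were tested on simulated data, where false calls were a larger share of the calls of the row-pair test than its threshold of 0.05. Exons and sequences came from GENCODE M21 and gene positions from RefSeq, both on GRCm38. Members with fewer reads carry a larger counting error, which the spread between embryos includes. Same-numbered embryos of the 2 groups share a number in their labels, and whether it pairs them is not given. Their deviations from the group means correlated at 0.126, 0.224 and 0.144 over 10773 genes, so a fit with the number as a block was also run. Knockout 2 correlated more with control 3, at 0.306, than with its own number.

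All members are named, with Esrp1 and Esrp2 (log2 fold change 0.23, adjusted p = 0.994, edgeR); for each list, genes past the threshold or else the one with the lowest adjusted p, and the one with most FPKM; and the 3 genes most like Epb4.1l5. Summed CPM of the marker lists not given beside a result was 787 to 989 in knockout and 846 to 1053 in control embryos for Schwann cells and satellite glia, 198 to 322 in knockout and 210 to 414 in control embryos for endothelium, and 72.5 to 147 in knockout and 132 to 219 in control embryos for melanocytes. The members and lists were chosen with earlier results of these data known.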

Additional observations from a re-analysis of the deposited data

How the results depend on the processing

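Against 22 genes called, DESeq2 called 165, leaving out both embryos numbered 1 gave 159, Xist as a covariate gave 6 and the replicate block gave 6. Leaving out 1 embryo gave 0 to 30, with 0 without knockout 2 (680 genes at an unadjusted p under 0.05, edgeR) and 0 without control 3 (540 genes, edgeR). Of the 22 genes, 5 stayed called with the block and 1 with the covariate. For row pairs, against 1 called, fits without a trend called 0 (91 pairs at an unadjusted p under 0.05, limma). Leaving out 1 embryo gave 0 to 2, with 0 without knockout 2 (84 pairs at an unadjusted p under 0.05, limma) and 2 without control 3. With the replicate block 1 pair was called. The 1 pair called was that of Epb4.1l5, on which the family was selected, so nothing is read from these counts about its difference.

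The Epb4.1l5 share difference of -18.1 percentage points was -42.0 points with FPKM in place of reads, by construction, since the FPKM of each row is divided by its own length. Leaving out 1 embryo left it at -19.6 to -16.7, leaving out both embryos numbered 1 gave -16.0, and knockout 1 alone against the controls gave -19.5, these last 2 chosen after the data were seen. A second-row denominator was not used, since with 2 rows the second row is the one whose share is measured. The short-form difference of -27.5 points was -29.2 to -25.8 without 1 embryo. The 6 other members passed under 0 of 13 alternatives each, with adjusted p of at least 0.170, and 9 of these 78 values turned direction. Without 1 embryo the log2 fold change ran from -0.27 to 0.012 for Epb4.1, -0.19 to 0.021 for Epb4.1l1, -0.15 to 0.063 for Epb4.1l3, -0.0034 to 0.21 for Epb4.1l4a and -0.49 to 0.028 for Epb4.1l4b, with 0.0045 for Epb4.1l1 without knockout 1. Without both embryos numbered 1 it was 0.095 for Epb4.1, 0.11 for Epb4.1l1 and 0.011 for Epb4.1l3. Epb4.1l2 stayed positive throughout. The 0.43 of the Epb4.1l5 long row was 0.73 without both embryos numbered 1, 0.29 to 0.64 without 1 embryo, 0.24 with the mean of a gene's rows and 0.19 with Xist as a covariate. The order of members by CPM was that by FPKM. The cause of these shifts was not tested.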
